A study of Mus musculus with 6 samples.

Results

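The insulin-like growth factor (IGF) family of the liver was followed in mice without hepatocyte Selenoo, which encodes SelO, a selenoprotein of mitochondria. The family was taken as 9 genes of the deposited table, out of 16140 genes in all: the hormone gene Igf1, the binding protein genes Igfbp1, Igfbp2, Igfbp3, Igfbp4, Igfbp5 and Igfbp7, the acid-labile subunit gene Igfals and the receptor gene Igf1r. They were chosen by name, with the knockout-to-control difference of the counts already known, above all that of Igfbp1, so the differences of these 9 genes are given as a description and nothing is supported with them. All 9 had enough counts to be tested, as did 12173 genes of the table.

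Bulk RNA-seq of poly(A)-selected liver RNA was available for 3 control samples of genotype Selofl/fl and 3 knockout samples of genotype Selofl/fl Alb-Cre. Both groups carry the floxed Selenoo alleles and were on a normal diet, and the knockouts add Cre driven by the albumin promoter, which is active in hepatocytes. Loss of Selenoo and presence of Cre therefore cannot be told apart. The sources used here do not give age, sex or the feeding state at collection. They do not state that the libraries came from separate mice either, and the p-values cover only the spread among these libraries, which may be technical.

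IGF1 is a growth hormone-driven hormone, and the liver is its main source in blood. Most circulating IGF1 sits in a complex with a binding protein and the acid-labile subunit, which prolongs its life, while smaller binding proteins carry or block the rest. IGFBP1 is the family member known for fast control: insulin represses its gene in hepatocytes through forkhead (FOXO) factors that bind an insulin response element before the transcription start, and fasting raises it.

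That element can be read in the reference sequence, and the Igfbp1 promoter is shown because Igfbp1 is the member whose level differed most. Its sequence is printed beside that of Igfbp2, another binding protein gene of the liver, whose level did not pass the test. Both are the 250 bases before the annotated transcription start on the plus strand of GRCm38.p6 (RefSeq), at chr11:7197537-7197786 for Igfbp1 and chr1:72824230-72824479 for Igfbp2. Capitals mark the insulin response element cores CAAAACA and its variant CAAAATA (read on either strand) and the forkhead core GTAAACA.
Igfbp1: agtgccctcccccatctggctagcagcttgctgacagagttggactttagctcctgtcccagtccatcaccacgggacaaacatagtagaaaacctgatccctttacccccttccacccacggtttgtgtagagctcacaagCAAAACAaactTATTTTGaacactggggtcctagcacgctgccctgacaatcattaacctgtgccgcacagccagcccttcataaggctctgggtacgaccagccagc
Igfbp2: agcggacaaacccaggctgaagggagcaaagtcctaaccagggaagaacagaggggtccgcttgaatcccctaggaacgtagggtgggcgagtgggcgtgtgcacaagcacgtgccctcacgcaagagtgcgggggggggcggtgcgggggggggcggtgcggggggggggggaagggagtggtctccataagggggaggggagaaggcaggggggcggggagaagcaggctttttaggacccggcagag
In Igfbp1 the core CAAAACA lay 108 to 102 bases before the start, and the variant lay 97 to 91 bases before it on the other strand. Together they span the 18 bases CAAAACAAACTTATTTTG at chr11:7197679-7197696. The Igfbp2 sequence held none of these motifs.

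Of the 9 members, all were found in the RefSeq promoter table, with 12 windows of 300 bases between them (250 before and 50 after a start; 3 windows for Igfals and 2 for Igfbp2). Igfbp1 had the only windows of the 12 with CAAAACA and with CAAAATA, against 6.28% and 4.36% of all 32851 windows in the table. Both motifs together occurred in 0.472% of all windows, a combination that was looked up after the Igfbp1 sequence had been seen. The forkhead core GTAAACA was found in 1 window of Igfals (3.65% of all windows), and the STAT motif TTCNNNGAA, of the kind that growth hormone signalling uses, in 2 of its 3 windows (8.30% of all). The glucocorticoid receptor half-site AGAACA was in 1 window each of Igfbp2 and Igfals (19% of all), and TATAAA in that of Igfbp4, 28 to 23 bases before the start (13.6% of all). Both strands were searched, and no match overlapped another. These matches describe letters in the reference and show no binding.

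Libraries held 15550287 to 18680196 estimated counts. Selenoo itself, measured in CPM (counts scaled to library size), ran from 84.2 to 96.0 in control and from 6.29 to 9.31 in knockout libraries, as their labels say. Across genes, log2 CPM correlated at 0.9695 to 0.9807 among controls and at 0.9859 to 0.9896 among knockouts, so the control libraries were the more spread out. All 8 hepatocyte markers were present in every library, with a summed level of 135745 to 176932 CPM in controls and 152352 to 178424 CPM in knockouts, most of it albumin mRNA (Alb). Of the 8, 1 was called higher in edgeR, as were 0.772% of all tested genes. It was Serpina1a, a gene of alpha-1-antitrypsin with near-identical copies that can share reads (1.92-fold, 95% interval 1.52 to 2.42, adjusted p = 0.0198 in edgeR). The call was lost without control replicate 2 or any 1 of the knockouts. In bulk tissue, fewer cells of a type and less RNA per cell cannot be told apart.

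Igfbp1 (NCBI Gene 16006, chromosome 11, 7197787 to 7202546, plus strand, GRCm38) was the member that differed. Control libraries held 624, 944 and 876 estimated counts of it, knockout libraries 4114, 5817 and 3680. After scaling, this was 41.9, 48.8 and 45.4 CPM against 221, 332 and 209 CPM. Every knockout library lay far above every control, and the controls were close together (coefficient of variation 7.62%) while the knockouts were more spread (26.8%), with replicate 2 the highest. The fitted difference was 5.60-fold (95% interval 4.10 to 7.65), or 2.49 ± 0.20 on the log2 scale (SE, n = 3 per group), and the adjusted p over all genes was 0.0017 (edgeR, quasi-likelihood). By p-value it ranked 2 among the tested genes, behind Selenoo (rank 1). The authors' deposited table lists Igfbp1 at 2.49 on the log2 scale as well.

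Igfbp1 was the only one of the 9 members called at an adjusted p of 0.05, beside 1.49% of all tested genes (0.772% higher and 0.715% lower in knockouts). DESeq2, an alternative count test, also called 1 member of 9, beside 5.26% of all genes. The median log2 fold change was 0.04 over the members and -0.018 over all tested genes. Groups did not overlap in 3 members, Igfbp1, Igfbp4 and Igfals, as in 25.2% of all genes. Since the contrast was known when the genes were chosen, nothing is read from these shares.

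**Figure D1:**
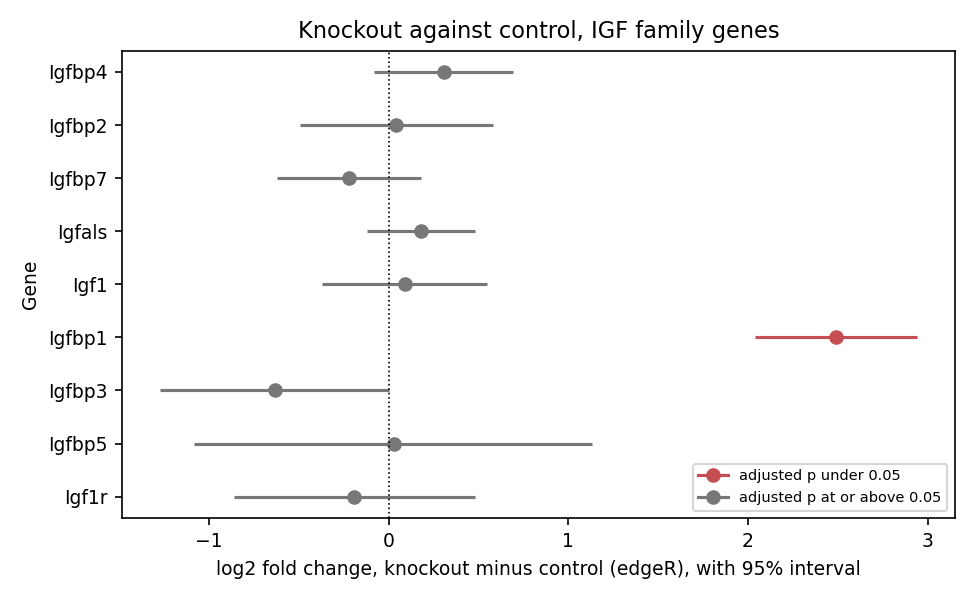
Fitted log2 fold change (x axis, knockout minus control, edgeR) for each of the 9 genes (y axis), as points with 95% intervals from 3 libraries per group. Igfbp1 stands at 2.49 with an interval of 2.04 to 2.94, while the intervals of the other 8 genes reach or cross 0.

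Igf1 (NCBI Gene 16000, chromosome 10, 87858265 to 87937047, plus strand) encodes the hormone. Control livers had 692, 424 and 434 CPM of it, and knockout livers 493, 591 and 563 CPM. Control replicate 1 was the highest of all 6 libraries and the other controls were the lowest, so the groups overlapped. The log2 difference was 0.09 ± 0.21 (SE), and its 95% interval of -0.37 to 0.55 still allows a change of up to 1.46-fold (adjusted p = 0.841, edgeR). Without control replicate 1 it was 0.36 ± 0.13 with an adjusted p of 0.189. The table gives 1 value for the 24 annotated Igf1 transcripts, so the different Igf1 precursors were not resolved.

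Igfals (NCBI Gene 16005, chromosome 17, 24877844 to 24882011, plus strand) encodes the acid-labile subunit, which hepatocytes add to the IGF1 complex in blood. It measured 157, 148 and 157 CPM in the controls and 193, 158 and 173 CPM in the knockouts. The knockouts lay above the controls by a narrow gap at knockout replicate 2, and Igfals had the smallest spread among the controls of any member (3.27%). Its log2 difference of 0.18 ± 0.13 (SE, 95% interval -0.12 to 0.48) did not pass (adjusted p = 0.483, edgeR).

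Igf1r (NCBI Gene 16001, chromosome 7, 67952257 to 68233668, plus strand), the receptor tyrosine kinase that IGF1 activates, was barely detected, and mature hepatocytes are known to carry little of it. Its counts per library were 32, 33 and 27 for control and 36, 19 and 27 for knockout livers. The groups overlapped, and with so few counts the 95% interval of the fold ran from 0.549 to 1.40 (adjusted p = 0.761, edgeR). Differences within that interval remain possible.

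Igfbp4 (NCBI Gene 16010, chromosome 11, 99039931 to 99052655, plus strand) encodes an IGF-blocking binding protein whose cleavage by the protease PAPP-A frees IGF. Its mean level, scaled by transcript length (TPM), was the highest of the members in both groups. In control replicate 1, however, Igfbp2 was above it (742 against 620 TPM). Igfbp4 was at 1097, 1393 and 1612 CPM in the controls and at 1749, 1697 and 1622 CPM in the knockouts. All knockouts were above all controls, but control replicate 3 and knockout replicate 3 nearly met, and the controls were more spread out (18.9%) than the knockouts. The log2 difference was 0.31 ± 0.17 (SE, 95% interval -0.08 to 0.69), with an adjusted p of 0.369 in edgeR. Without control replicate 1, the lowest library, it was 0.17 ± 0.13.

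Igfbp2 (NCBI Gene 16008, chromosome 1, 72824480 to 72852474, plus strand) encodes a second abundant binding protein of liver and plasma. Its levels were 628, 458 and 453 CPM in the controls and 466, 723 and 395 CPM in the knockouts. The highest and the lowest of the 6 libraries were both knockouts, replicates 2 and 3. The 95% interval of the fold was 0.712 to 1.49 (adjusted p = 0.937, edgeR), and the sign of the difference changed with the scaling.

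Igfbp3 (NCBI Gene 16009, chromosome 11, 7206086 to 7215498, minus strand) encodes the main IGF carrier of blood, and in rodent liver it is known from endothelial and Kupffer cells rather than from hepatocytes. It measured 15.6, 26.0 and 15.3 CPM in the controls and 9.78, 9.54 and 17.5 CPM in the knockouts. Knockout replicates 1 and 2 were below all controls, while replicate 3 was above 2 of them. The log2 difference was -0.63 ± 0.28 (SE, 95% interval -1.27 to 0.00), with an unadjusted p of 0.0513 and an adjusted p of 0.274 in edgeR. Control replicate 2 carried much of it: without that library the value was -0.33 ± 0.27 (adjusted p = 0.603), and without knockout replicate 3 it was -0.97 ± 0.26 (adjusted p = 0.191).

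Igfbp5 (NCBI Gene 16011, chromosome 1, 72858065 to 72874865, minus strand), a binding protein known from stromal cells such as stellate cells, was the most uneven member. Control counts of 52, 408 and 197 gave 3.49, 21.1 and 10.2 CPM, against 10.5, 9.20 and 16.0 CPM in the knockouts. The knockouts all lay inside the range of the controls, whose coefficient of variation was 76.6%. The interval of the fold, 0.473 to 2.19, was accordingly wide (adjusted p = 0.983, edgeR), and the sign of the difference changed with the scaling. Without control replicate 1 the log2 difference was -0.39 ± 0.31, and without control replicate 2 it was 0.78 ± 0.41.

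Igfbp7 (NCBI Gene 29817, chromosome 5, 77349240 to 77408045, minus strand) encodes a related secreted protein with low affinity for IGFs that vessel and stromal cells make. The controls were at 134, 120 and 85.9 CPM and the knockouts at 89.3, 94.2 and 108 CPM. All knockouts lay between the lowest and the highest control. The log2 difference of -0.22 ± 0.18 (SE, 95% interval -0.62 to 0.18) did not pass (adjusted p = 0.524, edgeR), and it was -0.08 ± 0.16 without control replicate 1.

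Markers of the cells that are known to make these 3 proteins were set beside them. The 9 liver endothelial markers summed to 392 to 430 CPM in the controls and 326 to 409 CPM in the knockouts, and 1 of them was called, Lyve1 (log2 -1.15 ± 0.18, adjusted p = 0.0196, edgeR), which was not called when control replicate 2 or either of knockout replicates 1 and 3 was left out. Stellate markers (0 of 9 called in edgeR, 1 at an unadjusted p under 0.05, 0 with DESeq2) summed to 458 to 559 CPM against 432 to 544 CPM. Kupffer cell markers (0 of 9 called in edgeR, 4 unadjusted, 1 with DESeq2) summed to 472 to 683 CPM against 417 to 473 CPM. The fold change was negative in 9 of 9 Kupffer, 8 of 9 endothelial, 4 of 9 stellate, 4 of 5 cholangiocyte and 5 of 5 lymphocyte markers. Of all 12173 tested genes, 6351 had a negative fold change. Without control replicate 1, 2 Kupffer markers were called. Over all genes, 1.49% were called in edgeR (0.715% lower in knockouts), 5.26% were called with DESeq2, and 18.5% had an unadjusted p under 0.05 in edgeR. Control replicate 2, the highest library for Igfbp3 and Igfbp5, was also the highest in stellate (559 CPM), Kupffer (683 CPM) and lymphocyte (10.9 CPM) markers. In endothelial markers it was the lowest control (392 CPM), and Igfbp7 was highest in control replicate 1 (134 CPM). Most of its stellate sum was Dcn (211 CPM) and Ecm1 (231 CPM), and some other stellate markers peaked in other libraries. Lymphocyte markers summed to 5.91 to 10.9 CPM in controls and 2.05 to 5.20 CPM in knockouts, with 0 of 5 called (edgeR; 3 unadjusted, 0 with DESeq2). The 5 cholangiocyte markers, again with 0 called (edgeR; 0 unadjusted, 0 with DESeq2), summed to 19.1 to 53.3 CPM against 30.1 to 41.7 CPM. No listed marker was at 0 counts in any library, and the part of these cells in the values of Igfbp3, Igfbp5 and Igfbp7 was not tested.

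**Figure D2:**
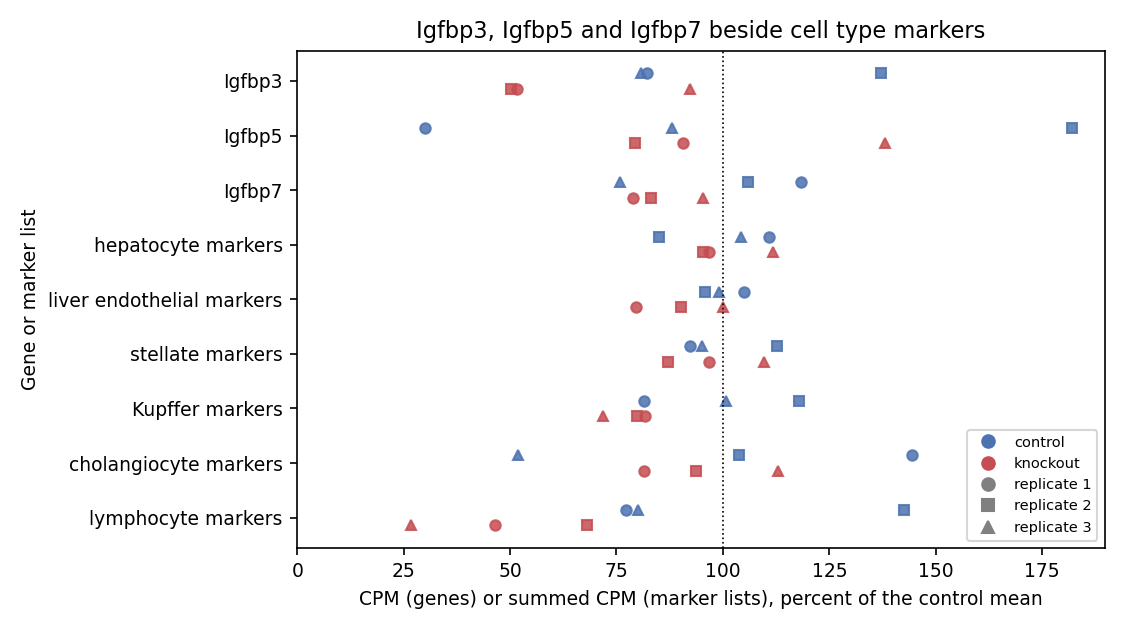
Level in each library as a percentage of the control mean (x axis, CPM for genes and summed CPM for marker lists) for Igfbp3, Igfbp5, Igfbp7 and 6 lists of cell type markers (y axis), with a symbol per replicate. Control replicate 2 (blue squares) is highest for Igfbp3, Igfbp5 and the stellate, Kupffer and lymphocyte lists. Among controls it is lowest for the endothelial list, and control replicate 1 is highest for Igfbp7. All knockout libraries lie below all controls for lymphocyte markers.

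Levels of different genes were compared in TPM, a transcript abundance that is scaled by length and library. In the controls the order was Igfbp4 (931 ± 289 TPM; SD, n = 3), Igfbp2 (637 ± 90.5), Igfbp7 (158 ± 22.4), Igfals (101 ± 13.5), Igf1 (92.0 ± 13.3), Igfbp1 (44.4 ± 8.69), Igfbp3 (10.8 ± 4.16), Igfbp5 (2.68 ± 2.13) and Igf1r (0.197 ± 0.0231). The ranges of Igfbp4 and Igfbp2 overlapped, as did those of Igfals and Igf1, and the other neighbours were apart. In the knockouts Igfbp1, at 249 ± 61.9 TPM (SD, n = 3), stood at rank 3 in place of rank 6, between Igfbp2 (637 ± 185) and Igfbp7 (139 ± 9.40), with no overlap with either. There the ranges of Igfbp7, Igfals (116 ± 17.3) and Igf1 (101 ± 4.75) overlapped from one to the next.

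**Figure D3:**
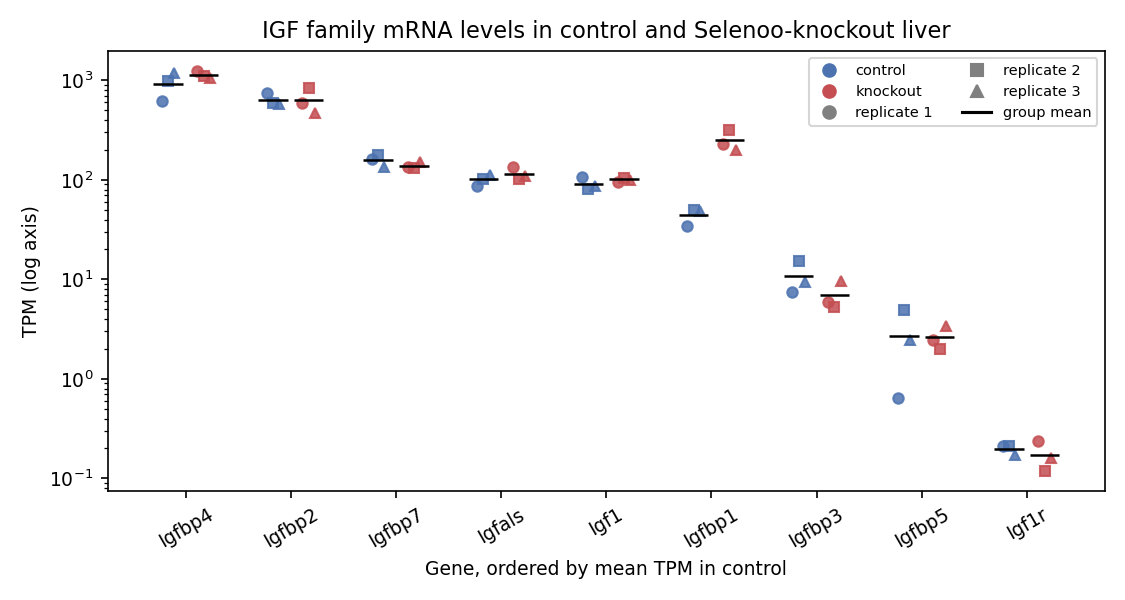
TPM (y axis, log scale) of each IGF family gene (x axis) in the 3 control and 3 knockout libraries, a symbol per replicate, with group means as bars. Igfbp1 is the gene whose libraries separate widely, around means of 44.4 TPM in controls and 249 TPM in knockouts, and Igfbp5 has the widest spread among controls.

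The 6 binding protein genes summed to 1565, 1818 and 1970 TPM in the controls and 2224, 2411 and 1894 TPM in the knockouts. These totals overlapped, with knockout replicate 3 below control replicate 3. In FPKM, which is not scaled to a fixed total per library, the sums were 1437, 1500 and 1492 against 1704, 1948 and 1510, and the groups did not overlap. Igfbp1 made up 2.20%, 2.75% and 2.48% of the total in control livers but 10.3%, 13.2% and 10.5% in knockout livers, or 2.47% ± 0.276 against 11.3% ± 1.61 (SD, n = 3). Igfbp4 and Igfbp2 together supplied most of the total in every library. Igfbp4 gave 51.4% ± 10.7 in controls and 52.8% ± 5.66 in knockouts, and Igfbp2 gave 36.4% ± 9.60 and 28.9% ± 5.17 (SD, n = 3). These are shares of mRNA, not of secreted protein.

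**Figure D4:**
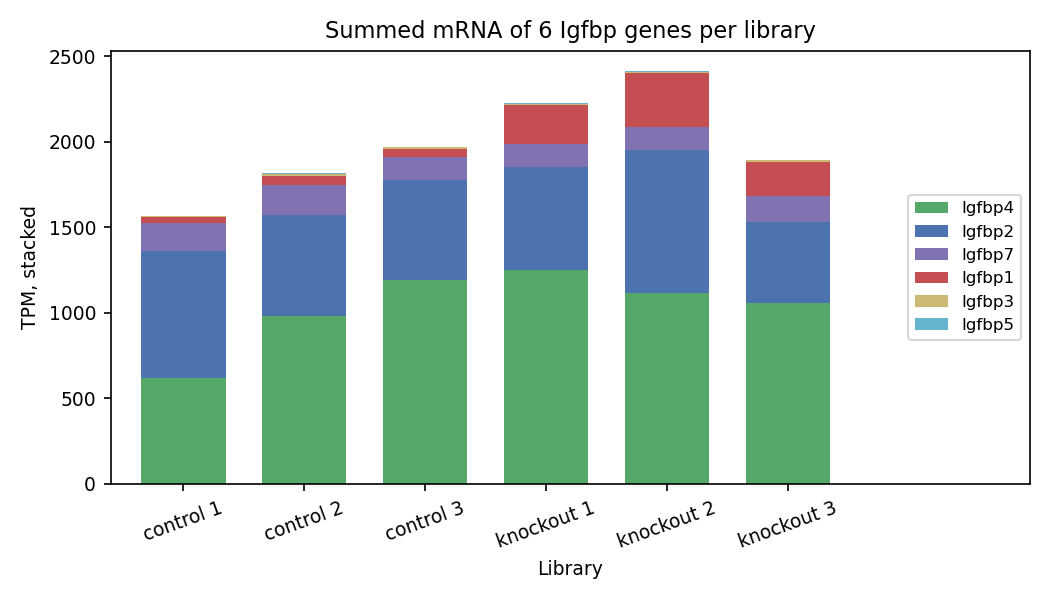
Stacked TPM (y axis) of Igfbp1, Igfbp2, Igfbp3, Igfbp4, Igfbp5 and Igfbp7 in each of the 6 libraries (x axis). The Igfbp1 band is 2.20% to 2.75% of the bar in controls and 10.3% to 13.2% in knockouts, while Igfbp4 and Igfbp2 fill most of every bar.

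Members of the family lie next to each other in 2 places of the genome. Igfbp1 and Igfbp3 face each other on chromosome 11, with 3539 bases between their ends and no other gene of the table in that gap. Igfbp2 and Igfbp5 are arranged the same way on chromosome 1, 5590 bases apart. The log2 difference was 2.49 ± 0.20 (SE) for Igfbp1 and -0.63 ± 0.28 (SE) for its neighbour Igfbp3, which did not pass. Igfbp2 and Igfbp5, at 0.04 ± 0.24 and 0.03 ± 0.49 (SE), were without a called difference. In both pairs the gene on the plus strand had the higher TPM in every library.

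Other genes of the IGF axis were taken from a list of 17, of which 15 were in the table and 8 had enough counts. None of the 8 was called in edgeR (1.49% of all tested genes were), 2 had an unadjusted p under 0.05, near the 18.5% of all genes, and DESeq2 called 1 (5.26% of all genes), the insulin receptor substrate gene Irs2. Irs2 was at 21.9, 16.1 and 26.3 CPM in the controls and 42.2, 39.0 and 26.1 CPM in the knockouts, which overlap at knockout replicate 3 (log2 0.74 ± 0.22, adjusted p = 0.128 in edgeR). Igf2bp2, an mRNA-binding protein named for Igf2 mRNA, was at 1.44 ± 0.277 CPM in controls and 0.592 ± 0.188 CPM in knockouts (SD, n = 3; log2 -1.28 ± 0.34, adjusted p = 0.103 in edgeR). The substrate gene Irs1 was at 11.5 ± 3.01 and 14.4 ± 3.66 CPM (SD, n = 3; adjusted p = 0.467 in edgeR). The fetal growth factor gene Igf2 had 3 to 8 counts per library, and Pappa and Pappa2, the genes of the proteases that cut binding proteins, had at most 2 counts. The list's median log2 difference was 0.23.

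Growth hormone drives Igf1 and Igfals through its receptor, the kinase JAK2 and STAT5. None of the 9 genes of this list was called in edgeR and 2 had an unadjusted p under 0.05, a share close to the 18.5% of all genes. DESeq2, which called 5.26% of all genes, called 2, both lower: Socs2, a feedback inhibitor that growth hormone induces, and the prolactin receptor gene Prlr. Socs2 was at 102, 40.7 and 81.0 CPM in the controls and 31.2, 43.3 and 36.9 CPM in the knockouts, with control replicate 2 among the knockouts (log2 -1.01 ± 0.29, adjusted p = 0.117 in edgeR). Prlr was at 110, 75.1 and 152 CPM against 73.9, 46.6 and 72.9 CPM (log2 -0.80 ± 0.26, adjusted p = 0.157). Without control replicate 2, Socs2 was the 1 gene of the list called in edgeR. Socs3, the inhibitor of cytokine signalling, had a log2 difference of 0.53 ± 0.25 (adjusted p = 0.303). The list's median log2 difference was 0.21.

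Igfbp1 belongs to the genes that insulin represses and fasting raises. A list of 13 other genes was set beside it, of this class or among its regulators, such as Foxo1 and Crtc2. As with the other lists, it was chosen with earlier results of these data known, so nothing is read from its counts. Of the 13, 5 were called higher in knockouts and 0 lower in edgeR, which called 0.772% of all genes higher. At an unadjusted p under 0.05 there were 7 (18.5% of all genes), and DESeq2 called 6 (5.26% of all genes). The call that DESeq2 added was Irs2, which is in both lists and was also its call among the other IGF axis genes. The list's median log2 difference was 0.45. The 5 were Pdk4, the kinase that shuts off pyruvate dehydrogenase, Tat, an enzyme of tyrosine breakdown, the coactivator gene Ppargc1a, and G6pc and Pck1 of glucose production. Pdk4 had 3.42, 2.74 and 4.93 CPM in the controls and 50.8, 32.5 and 18.1 CPM in the knockouts, and Pck1 had 2683, 2429 and 2834 CPM against 4654, 4260 and 4521 CPM. In both genes the groups were well apart. Log2 differences ran from 0.76 ± 0.15 in Pck1 to 3.19 ± 0.38 in Pdk4 (SE), so that of Igfbp1 lay within their range. Foxo1, the forkhead factor itself, was at 29.8, 37.4 and 40.1 CPM in the controls and 53.6, 44.9 and 48.2 CPM in the knockouts, apart but not called (log2 0.45 ± 0.15, adjusted p = 0.154). Crtc2, a coactivator of glucagon signalling, also did not pass (0.24 ± 0.12, adjusted p = 0.323). The 5 calls fell to 2 without control replicate 2, and to 3, 1 and 1 without knockout replicates 1, 2 and 3.

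Of 8 insulin-induced genes, 1 was called in edgeR, and it was lower, as were 0.715% of all genes. At an unadjusted p under 0.05 there were 2, near the 18.5% of all genes, and DESeq2, with 5.26% of all genes called, also called 2, the other being Scd1, which was higher. Angptl8, a secreted regulator of lipoprotein lipase that feeding raises, was at 70.3, 83.5 and 58.9 CPM in the control libraries against 26.8, 13.6 and 19.9 CPM in the knockout ones (log2 -1.82 ± 0.24, adjusted p = 0.0105 in edgeR). Every knockout library was below every control for this gene. The lipogenic genes of the list did not follow one direction: the desaturase gene Scd1 had 1.12 ± 0.33 (adjusted p = 0.123), Elovl6, a fatty acid elongase gene, 0.48 ± 0.38 (0.515) and the synthase gene Fasn -0.59 ± 0.32 (0.357), all log2 with SE. The list's median was 0.02. There were 0 calls when knockout replicate 3 was left out, and there were 2 without control replicate 3, the added one being Elovl6.

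**Figure D5:**
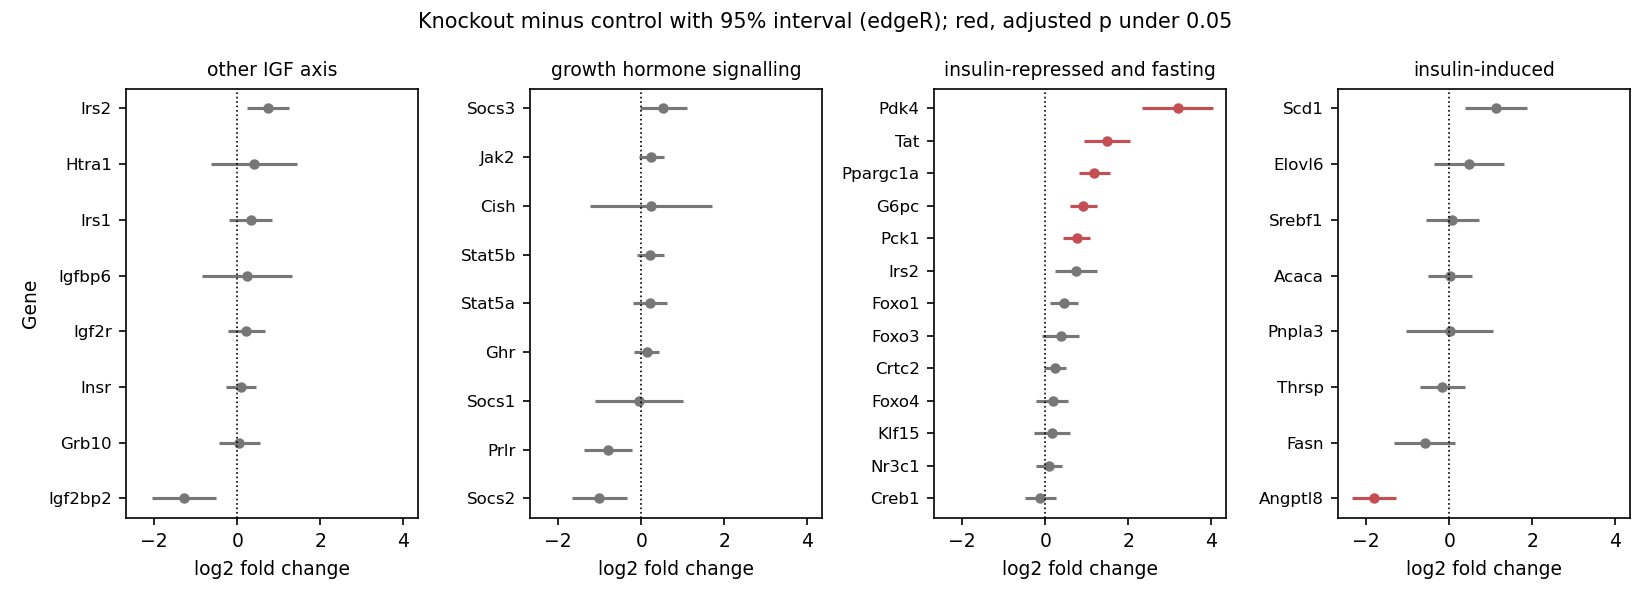
Fitted log2 fold change (x axis, knockout minus control) with 95% intervals for the tested genes of 4 lists (y axes), red where the adjusted p is under 0.05. Called genes are the 5 of the insulin-repressed and fasting list, all to the right, and Angptl8 of the insulin-induced list, to the left.

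The genes whose pattern over the 6 libraries was closest to that of Igfbp1 were Fabp5, Asns, Slc13a2, Fam89a and Map3k13. Closeness was the root-mean-square difference of log2 CPM, each gene centred on its own mean, among 11318 genes, and it was 0.332 for Fabp5, a fatty acid binding protein gene, 0.339 for Asns, asparagine synthetase, 0.348 for Slc13a2, a citrate and succinate transporter gene, 0.349 for Fam89a and 0.389 for Map3k13, a stress kinase gene. The log2 differences of these genes ran from 1.98 to 2.77, and the measure itself favours differences near that of Igfbp1. In controls Slc13a2 and Asns were low, at means of 0.395 and 0.875 CPM, beside 22.6 CPM for Fabp5. Compared genes needed a mean log2 CPM of at least 0 over the 6 libraries. Slc13a2 and Asns reached it only through the knockouts, at means of 1.98 and 5.94 CPM. For Igfals the 5 closest were Zfp236, Mtmr10, Klhdc3, Cflar and Bcl9l, at 0.0309 to 0.0408. These values describe likeness only and were not tested.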

How the data were processed

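Estimated counts, FPKM and TPM per gene and library were used as the authors deposited them, per the file headers. The table also holds the authors' log2 fold changes, p-values and q-values (DESeq2, per the file headers), of which that of Igfbp1 is quoted from the deposited table. The submitters' processing notes name HISAT2, Bowtie2, RSEM 1.3.1 and GRCm38. Trimming and strandedness were not given in these sources. Columns named WT and cKO were matched to samples by group and number.

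Estimated counts (4.70% to 5.12% of values not whole) were rounded. All libraries differed by more than sampling noise (the chi-square statistic was at least 16.2 times its degrees of freedom). After filterByExpr and TMM scaling, the groups were compared by the quasi-likelihood test of edgeR 4.0.16 (R 4.3.3), genotype being the sole term, and p-values were adjusted by Benjamini-Hochberg over 12173 genes at 0.05. Standard errors and 95% intervals came from the F statistic. The script was tested on simulated data. The counting floor is 3 counts, 0.161 to 0.193 CPM per library.

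The members and lists were chosen with earlier results of these data known. Named genes were the members, Selenoo, each called gene of a pathway list and the 3 others of smallest p, and the 5 genes closest to Igfbp1 and to Igfals (log2 CPM with a prior count of 2; mean of at least 0; no predicted models). Others (Lyve1, Serpina1a, Alb, Dcn, Ecm1, Igf2, Pappa, Pappa2) were named after their values were seen. A gene of the insulin-induced list is not reported here, and the list's counts leave it out. Alternatives were other scalings (DESeq2 size factors, upper quartile), other filters (none, or 1 CPM in 3 libraries), a replicate block, leaving out each library, DESeq2 1.42.0, limma 3.58.1 with a trend on log2(FPKM + 1) or log2(FPKM + 0.1), and FPKM for TPM.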

Additional observations from a re-analysis of the deposited data

How the results depend on the processing

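Igfbp1 stayed called and higher under all 14 alternatives, with log2 differences of 2.25 to 2.61 and adjusted p of 2.42e-03 to 0.0154 when a library was left out, and 1 of 9 members was called in each. Of 126 values of single members, 114 kept their direction and side of the threshold, and 12, all uncalled, changed sign. Of these, 4 came from other scalings or limma: Igfbp2 with upper-quartile scaling (-0.004) and limma on log2(FPKM + 1) or log2(FPKM + 0.1) (-0.10 each), and Igfbp5 with upper-quartile scaling (-0.01). The other 8 came with 1 library left out, where Igfbp2 ran from -0.25 to 0.21, Igfbp5 from -0.39 to 0.78 and Igf1 from -0.04 to 0.36.

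The 181 calls over all genes became 330 without a low-count filter, 634 with DESeq2, 110 with limma on log2(FPKM + 1) and 43 to 668 with a library left out. With the replicate block they were 87, the insulin-repressed list had 2 calls in place of 5 and the hepatocyte markers 0 in place of 1. Deviations from the group means correlated at -0.16, -0.0786 and -0.076 between same-numbered libraries, and at -0.0462 to 0.107 between the other control and knockout pairs. With 3 libraries per group these values cannot settle whether the replicate numbers pair the samples. DESeq2 called 1 gene of the other IGF axis, 2 of growth hormone signalling and 1 Kupffer marker, where edgeR called 0, and 2 insulin-induced genes, where edgeR called 1. With a library left out the calls ran from 1 to 5 in the insulin-repressed list, 0 to 2 in the insulin-induced list, 0 to 1 in growth hormone signalling, hepatocyte and endothelial markers, and 0 to 2 in Kupffer markers. In FPKM the summed Igfbp level was 1476 in controls and 1721 in knockouts. The cause of these shifts was not tested.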
